A study of Mus musculus with 16 samples.

Results

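Newly made secretory proteins enter the endoplasmic reticulum (ER) through the Sec61 channel, guided by the signal recognition particle (SRP). Signal peptidase removes their signal peptides, and oligosaccharyltransferase attaches sugar chains to their asparagines while they are still being made. Folded proteins leave in vesicles coated with COPII, into which cargo receptors load them, and KDEL receptors return escaped ER residents. Acinar cells of the pancreas, which make digestive enzymes, are known for the amount of protein they pass through this route. The genes followed here are 40 components of it, chosen by name, with earlier results of these data known. They fall into the Sec61 translocon, the translocon-associated protein (TRAP) complex, signal peptidase, SRP and its receptor, oligosaccharyltransferase, the COPII coat, cargo receptors and KDEL receptors. All 40 symbols were found among the 22869 genes counted.

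RNA was sequenced from whole pancreata of mouse embryos at embryonic day 15.5, all of a mixed strain background. There were 4 libraries from control embryos, 4 from Pdx1LacZ/+ embryos, 3 from Oc1+/- embryos and 5 from embryos carrying both alleles (Pdx1LacZ/+;Oc1+/-). Pdx1 is a homeodomain factor of pancreas and beta cells, and its heterozygotes have a lacZ allele in place of 1 normal copy. Oc1 is the factor encoded by Onecut1, active in pancreatic progenitors and ducts; the labels do not describe its mutant allele further. Whether replicate libraries came from different litters is not stated, so p-values measure the spread between the libraries at hand, which may be technical in part.

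All measurements are from the authors' deposited table of comparisons, which holds log2 fold changes with their p-values and adjusted p. It also gives each gene's mean CPM, a read count scaled to library size and averaged over all libraries. Depth and values per library were not analysed here. The table lists 2283 genes, each of which passed adjusted p 0.1 and 1.5-fold together in some comparison. A gene was called changed at an adjusted p under 0.05 with a fold change of at least 1.5, which is 0.58 on the log2 scale. Of the 40 genes, 15 are listed and 25 are not. An unlisted gene is taken not to have reached adjusted p 0.1 together with 1.5-fold in any comparison, which is inferred from the listed genes. It may still have changed by less: at least 1978 unlisted genes had an adjusted p under 0.05 between Oc1+/- and control. The table's headings were checked by arithmetic and by the variances that group sizes predict. On this basis, what is headed as double against Oc1 heterozygotes was read as Pdx1 against Oc1 heterozygotes. Arithmetic alone would also fit an exchange of the headings of the Pdx1 and double heterozygotes against control. The other headings would then be right as printed, so the reading kept rests on the variances.

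As a check of the labels, Pdx1 stood at -0.47 in the Pdx1LacZ/+ and -0.61 in the double heterozygotes against control (adjusted p = 0.00427 and 5.03e-07 per the authors' deposited table). Being lower in both, Pdx1 cannot tell whether these headings are exchanged. Onecut1 did not pass against control in either group that carries the Oc1 allele (-0.48 in Oc1+/- and -0.27 in the double heterozygotes, with p-values of 0.146 and 0.954 after adjustment in the authors' deposited table). It was lower in double than in Pdx1 heterozygotes (-0.70) and higher in Pdx1 than in Oc1 heterozygotes (0.90; adjusted p = 0.0319 and 0.00191 per the authors' deposited table). Which exons the mutant allele lacks is not stated.

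In Oc1+/- pancreata 15 of the 40 genes rose against control and none fell. Among all genes counted 3.66% rose, and 2.59% fell, by the same rule. The 15 rose by between 1.5-fold and 2.20-fold, with an adjusted p of at most 8.05e-06. They are all the listed genes of the 40, so each came into the table through the Oc1+/- libraries. Pancreata with the Pdx1 allele, alone or with the Oc1 allele, had none of the 40 called in either direction against control. The shares over all genes were 0.206% higher and 0.0437% lower for Pdx1LacZ/+, and 0.188% higher and 0.555% lower for the double heterozygotes. In bulk tissue, fewer cells of a type and less RNA per cell cannot be told apart.

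**Figure D1:**
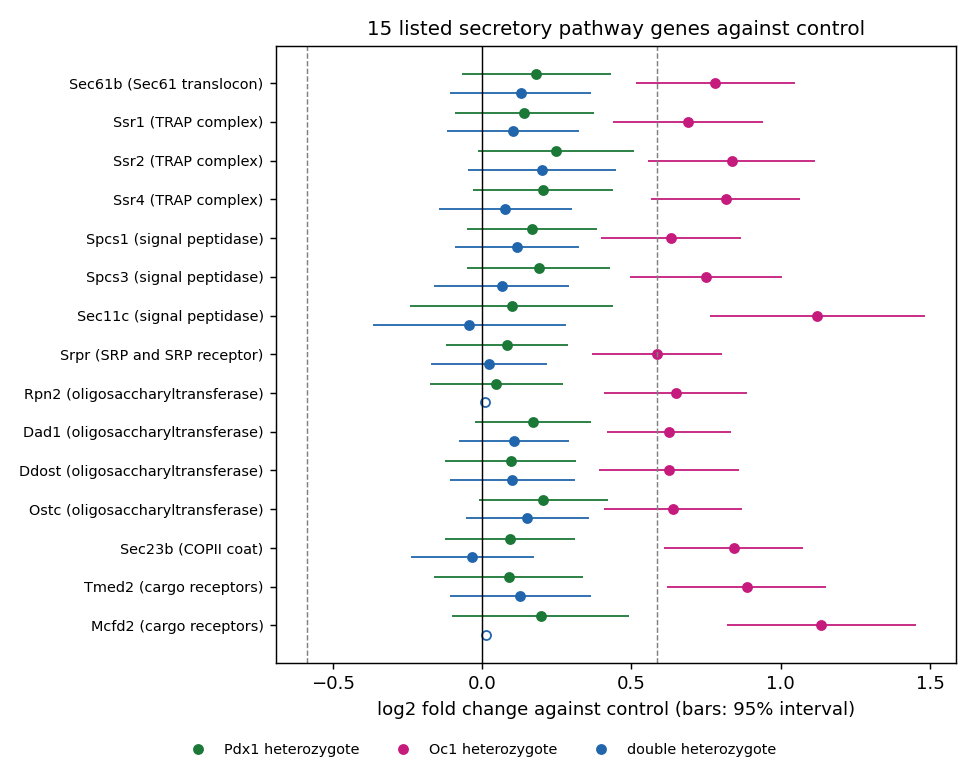
Log2 fold change against control of the 15 listed genes in each mutant genotype; points are the authors' deposited values and bars are 95% intervals implied by their p-values (open points have a p of at least 0.9 and no interval). Dashed lines mark 1.5-fold. The Oc1 heterozygotes lie between 0.59 and 1.14, while the other genotypes lie between -0.04 and 0.25.

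Translocation and glycosylation genes make up 12 of the 15, out of 26 followed, and vesicle export and retrieval genes 3 of 14. Over all genes counted, 2283 of 22869 are listed, and 3.66% rose in Oc1+/- against control by the full rule. The listed genes of each step are counted next. TRAP had 3 of 4, signal peptidase 3 of 5, oligosaccharyltransferase 4 of 7 and the cargo receptors 2 of 4. The Sec61 translocon and SRP with its receptor each had 1 of 5, the COPII coat 1 of 8 and the KDEL receptors none of 2. No test compares these shares.

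**Figure D2:**
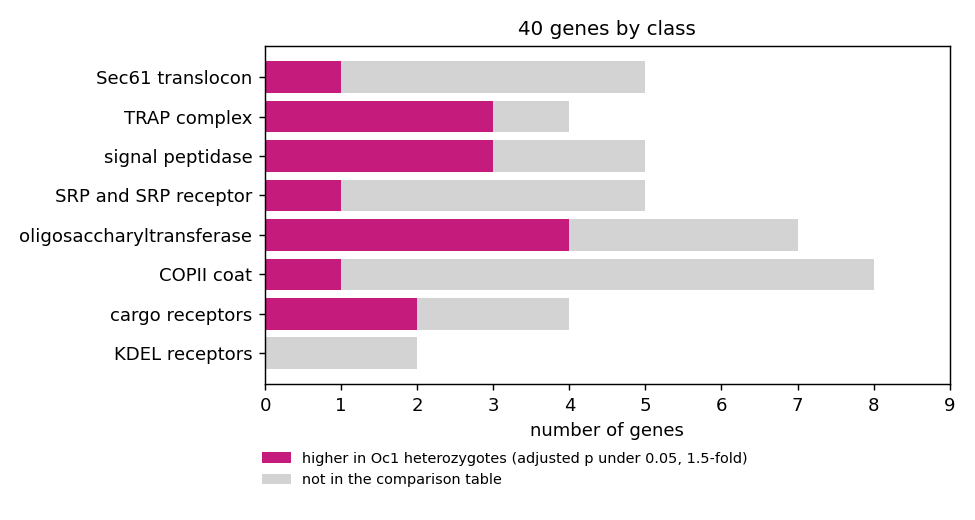
Number of genes in each class (horizontal axis), split into those higher in Oc1 heterozygotes than in control and those absent from the comparison table. All 15 listed genes are in the first part, and the KDEL receptors have none.

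At the translocon, the listed gene was Sec61b, the small beta subunit of the channel. It rose by 0.78 on the log2 scale in Oc1+/- against control (1.72-fold, standard error 0.14 implied by its p-value, adjusted p = 6.59e-07 per the authors' deposited table). It stood at 0.18 in Pdx1LacZ/+ and 0.13 in the double heterozygotes (adjusted p = 1 and 0.982 per the authors' deposited table). The pore-forming subunit Sec61a1, the gamma subunit Sec61g, and Sec62 and Sec63, which assist transport after translation, are unlisted. Sec61b has 2 other mouse genes in the GENCODE annotation, 1 of them a pseudogene, that match at least 50% of its transcript at 95% identity or more. How reads shared among them were counted is not given in the sources used here, so its level is uncertain.

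The TRAP complex sits beside the channel and helps some proteins enter it. Ssr2, Ssr4 and Ssr1, its beta, delta and alpha subunits, rose in Oc1+/- by 0.84, 0.82 and 0.69 (adjusted p = 3.69e-07, 2.54e-08 and 3.33e-06 per the authors' deposited table). Against control, the same 3 stood at 0.25, 0.20 and 0.14 in Pdx1LacZ/+ and at 0.20, 0.08 and 0.10 in the double heterozygotes by the authors' deposited table. Ssr2 had the highest value of the 15 in both genotypes that carry the Pdx1 allele (adjusted p = 0.923 and 0.884 per the authors' deposited table). Its 95% interval reached up to 0.51 in Pdx1LacZ/+ and 0.45 in the double heterozygotes, under the 1.5-fold line in each. Ssr3, the gamma subunit, is unlisted.

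Of the signal peptidase genes, Sec11c, a catalytic subunit, rose by 1.12 in Oc1+/- (2.18-fold, standard error 0.18, adjusted p = 9.97e-08 per the authors' deposited table). In Pdx1LacZ/+ it stood at 0.10 and in the double heterozygotes at -0.04 against control by the authors' deposited table. Sec11a, the other catalytic subunit, is unlisted. Of the accessory subunits, Spcs3 rose by 0.75 and Spcs1 by 0.63 (adjusted p = 6.51e-07 and 5.29e-06 per the authors' deposited table), and Spcs2 is unlisted.

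Srpr, the alpha subunit of the SRP receptor, which docks ribosomes at the ER, stood just inside the fold minimum in Oc1+/- (0.59, 1.5-fold, adjusted p = 6.78e-06 per the authors' deposited table). The SRP proteins Srp9, Srp14, Srp68 and Srp72 are all unlisted. Next above Srpr were Ddost and Dad1, both of oligosaccharyltransferase. The unlisted genes of the 40 have no value in the table, so those just outside the minimum cannot be given.

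Of the 7 oligosaccharyltransferase genes followed, 4 rose in Oc1+/-. Rpn2 stood at 0.65, Ostc at 0.64, Dad1 at 0.63 and Ddost at 0.63 (adjusted p = 5.8e-06, 3.27e-06, 2.79e-07 and 8.05e-06 per the authors' deposited table). These 4 are non-catalytic subunits; Ostc belongs to the form of the enzyme that works at the translocon. Their standard errors, 0.11 to 0.12, exceed the differences among them. Rpn1, another non-catalytic subunit, and Stt3a and Stt3b, the catalytic subunits, are unlisted. In the double heterozygotes Rpn2 stood at 0.01 against control, and Ostc at 0.15 (adjusted p = 1 and 0.928 per the authors' deposited table).

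Of the COPII genes, Sec23b had the smallest adjusted p of all 15 in Oc1+/- (0.84, 1.79-fold, standard error 0.12, adjusted p = 4.49e-10 per the authors' deposited table). Sec23b is an inner coat subunit whose loss in mice makes the pancreas degenerate. Against control it stood at 0.09 in Pdx1LacZ/+ and at -0.03 in the double heterozygotes by the authors' deposited table. Its paralog Sec23a is unlisted, as are the cargo-binding Sec24a and Sec24d, the outer coat genes Sec13 and Sec31a, and the GTPases Sar1a and Sar1b that start coat assembly.

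Among cargo receptors, Mcfd2 rose most of the 15 in Oc1+/- (1.14, 2.20-fold, standard error 0.16, adjusted p = 6.23e-10 per the authors' deposited table). Mcfd2 is the calcium-binding partner of the lectin Lman1, and in humans the pair carries coagulation factors V and VIII out of the ER; Lman1 is unlisted. Tmed2, a p24 protein of vesicles between ER and Golgi, rose by 0.89 (adjusted p = 1.23e-08 per the authors' deposited table), and its partner Tmed10 is unlisted. The KDEL receptors Kdelr2 and Kdelr3 are unlisted. Mcfd2 and Sec11c were the only genes of the 15 to pass 2-fold, and their 95% intervals (0.82 to 1.45 and 0.76 to 1.48) overlap those of Sec23b and Tmed2.

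The 15 genes are expressed at widely different levels. On the scale of mean CPM per kilobase of transcript over all libraries, Ssr2 was highest at 483, followed by Ddost at 267, Ostc at 256 and Rpn2 at 222. Sec11c was lowest at 23.2, below Tmed2 at 35.1 and Srpr at 69.5. Spcs1 stood at 130 and Spcs3 at 97.2 on the same scale, so the listed catalytic subunit of signal peptidase was less abundant per length than both accessory subunits. Lengths are of GENCODE transcripts matched to the RefSeq names of the count table, and the value of 79.9 for Ssr1 rests on a transcript of 9333 bases. The listed genes had transcripts of 564 to 9333 bases (median 2017), and the unlisted ones of 779 to 6581 (median 2957).

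**Figure D3:**
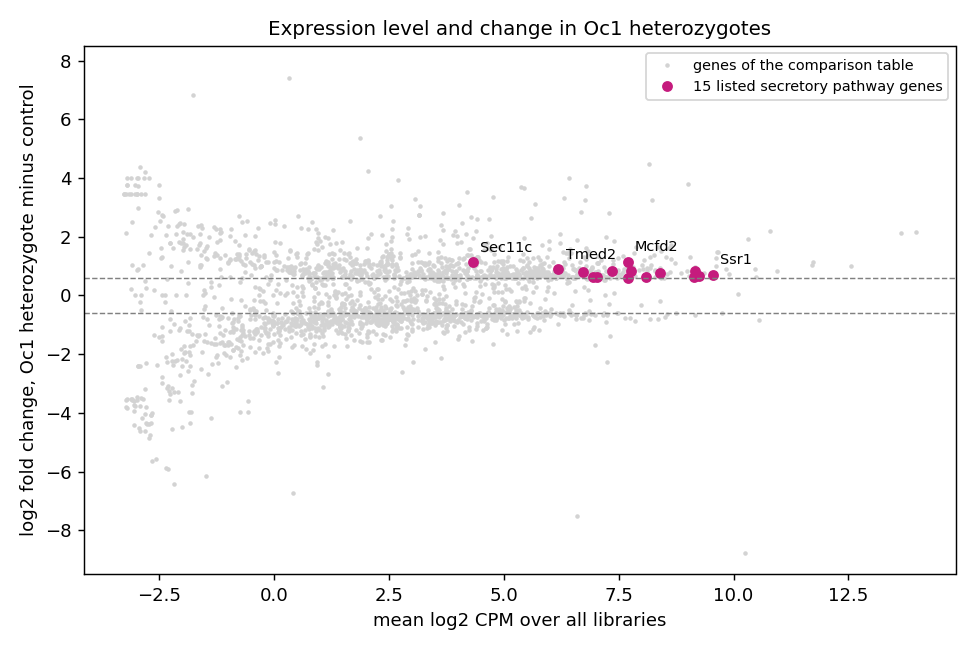
Mean log2 CPM over all libraries (horizontal) against log2 fold change of Oc1 heterozygotes over control (vertical) for the genes of the authors' deposited table, with the 15 followed here in colour. Dashed lines mark 1.5-fold. Sec11c has the lowest mean of the 15 (4.32) and Ssr1 the highest (9.54).

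The direct comparison of the single heterozygotes sets the alleles side by side, with no control libraries in the fold change. All 15 were lower in Pdx1LacZ/+ than in Oc1+/- at an adjusted p under 0.05, between 1.35-fold and 2.03-fold, and 8 of them also reached 1.5-fold. At least 11.2% of all genes passed that adjusted p alone, in either direction. Over all genes 2.46% were lower and 2.2% higher by the full rule. The 8 are Sec11c (-1.02), Mcfd2 (-0.94), Tmed2 (-0.80), Sec23b (-0.75), Ssr4 (-0.61), Rpn2 (-0.60), Sec61b (-0.60) and Ssr2 (-0.59), with adjusted p between 7.84e-08 and 0.00114 by the authors' deposited table. The other 7 lay between -0.43 for Ostc and -0.56 for Spcs3 (adjusted p = 0.00481 and 0.000621 per the authors' deposited table). This comparison uses the same Oc1+/- libraries through which the 15 came to be listed, so it is not separate evidence.

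The table has no comparison of double with Oc1 heterozygotes, so it was derived from the authors' fold changes and p-values. Each of the 15 was lower in the double heterozygotes, with adjusted p of at most 0.000529 by a normal test. The share of all genes that would pass on adjusted p alone is unknown, since only 2265 genes have a derived test. Of the 15, 10 also reached 1.5-fold. By this rule at least 2.79% of all genes were lower and at least 2.09% higher, with unlisted genes counted as not changed. Sec11c stood at -1.17, Mcfd2 at -1.12, Sec23b at -0.87 and Tmed2 at -0.76, with standard errors of 0.18, 0.16, 0.11 and 0.13. The smallest differences were Ostc at -0.49, Spcs1 and Dad1 at -0.52 each, and Ddost at -0.52. The same Oc1+/- libraries enter here too, so this is not separate evidence either.

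**Figure D4:**
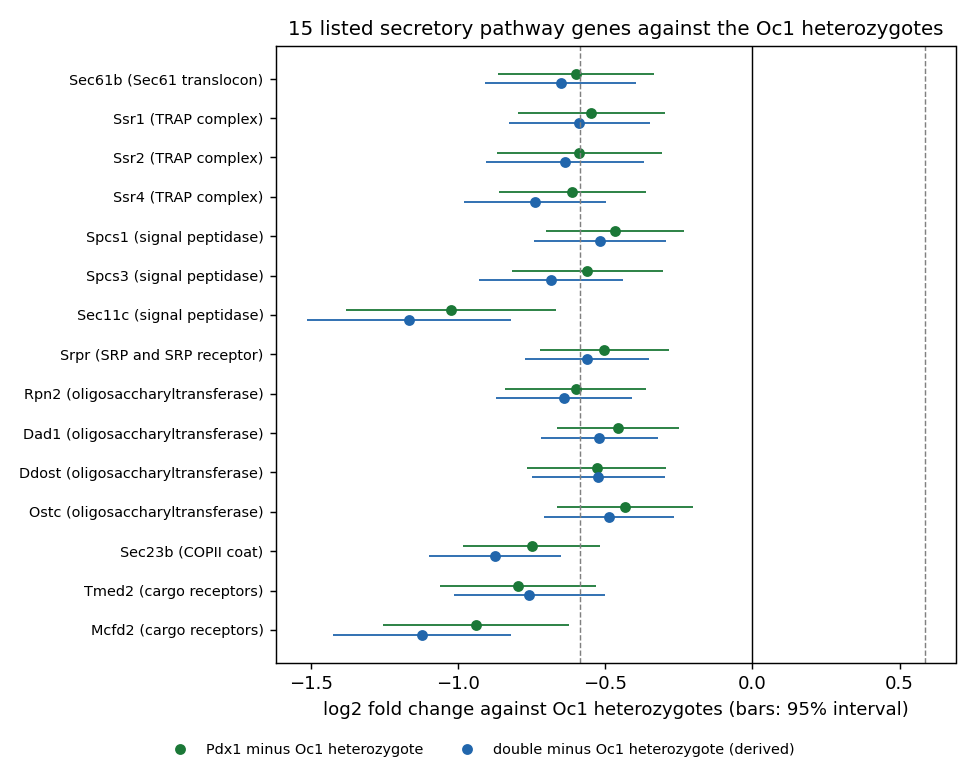
Log2 fold change of the Pdx1 heterozygotes (authors' deposited values) and of the double heterozygotes (derived) against the Oc1 heterozygotes for the 15 listed genes; bars are 95% intervals. All points are below 0, from -0.43 to -1.02 and from -0.49 to -1.17.

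Between double and Pdx1LacZ/+ pancreata, which differ by the Oc1 allele, none of the 40 was called (0.232% of all genes were higher and 0.63% lower). The 15 lay between -0.18 for Mcfd2 and 0.04 for Tmed2, double minus Pdx1 heterozygote (adjusted p = 0.946 and 1 per the authors' deposited table). For the 14 genes with an interval, its bounds lay within -0.46 and 0.28, inside 1.5-fold in both directions. Neither the control nor the Oc1+/- libraries enter these fold changes, though the p-values and intervals may draw on the spread in all groups.

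The difference of both effects of the Oc1 allele, with and without the Pdx1 allele, was derived as an interaction: double minus Pdx1 heterozygote, less Oc1 heterozygote minus control. It ran from -0.62 for Ddost to -1.32 for Mcfd2 on the log2 scale. By the full rule at least 2.97% of all genes had a negative and at least 1.66% a positive interaction. Unlisted genes were counted there as not changed. The 15 are listed because they were high in Oc1 heterozygotes against control, and that difference is subtracted here. The listing thus favours a negative sign, and the values are given as a description.

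Other genes of the route were read in the same comparison, in which 3.66% of all genes rose. Of the remaining translocation genes 2 of 26 (7.69%) rose in Oc1+/- against control, Tram1, a membrane protein at the channel (0.74), and Sil1, an exchange factor of the ER chaperone BiP (0.71; adjusted p = 6.68e-07 and 1.05e-07 per the authors' deposited table). Of 40 further genes of sugar chain synthesis and trimming 5 rose and none fell. The largest were Gmppb (0.93) and Gmppa (0.73), of GDP-mannose synthesis, and Krtcap2 (0.89), an oligosaccharyltransferase subunit (adjusted p = 6.52e-10, 1.84e-08 and 3.46e-10 per the authors' deposited table).

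Of 32 further COPII and vesicle fusion genes 5 rose, led by Sec16b, a paralog of the scaffold of ER exit sites (1.60, adjusted p = 4.32e-07 per the authors' deposited table). After it came Creb3l1, a membrane-bound transcription factor of the ER (0.64), and Ctage5, which works at ER exit sites (0.63; adjusted p = 5.18e-05 and 8.51e-07 per the authors' deposited table). Sec16b was also the 1 gene of these lists to rise in the double heterozygotes against control (1.18, adjusted p = 0.000636 per the authors' deposited table). Of 25 further p24, cargo and retrieval receptors 2 rose (8%, against 3.66% of all genes), Tmed6 and Tmed3, by 1.62 and 1.16 (adjusted p = 1.71e-11 and 2.91e-15 per the authors' deposited table). Of 18 genes of COPI, the coat of vesicles that return to the ER, 3 rose: Copz2 (0.94), the GTPase-activating Arfgap3 (0.87) and Cope (0.73; adjusted p = 2.98e-08, 5.23e-09 and 1.12e-07 per the authors' deposited table).

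Of 16 factors known to act on genes of this kind 4 rose in Oc1+/- (25%, against 3.66% of all genes) and none fell. Creb3l1 is counted here too. The others are Bhlha15, a factor of secretory cells (0.92), Xbp1, a factor of the unfolded protein response (0.78), and Eif2ak3, the ER stress kinase PERK (0.77; adjusted p = 2.25e-05, 3.69e-07 and 3.4e-07 per the authors' deposited table). In Pdx1LacZ/+ these 4 stood between 0.19 and 0.23, and in the double heterozygotes between 0.20 and 0.29, none past the threshold by the authors' deposited table.

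Acinar markers rose in Oc1+/- as well. Of 21 acinar markers counted, 19 rose against control, by 0.84 to 4.49 on the log2 scale, and none fell. Over all genes 3.66% rose and 2.59% fell. Bhlha15, named above, is counted among the 19 too. In Pdx1LacZ/+ 18 of the markers were lower than in Oc1+/- by the authors' deposited table, against 2.46% of all genes. The acinar factor Ptf1a stood at 0.84 and the carboxypeptidase Cpb1 at 4.49 (adjusted p = 0.000203 and 6.06e-10 per the authors' deposited table). Against control the 19 had medians of 0.84 in Pdx1LacZ/+ and 0.43 in the double heterozygotes, and the 15 genes 0.17 and 0.10. Sycn was the 1 marker of the 21 called in Pdx1LacZ/+ against control (higher by 1.27, adjusted p = 0.0446 per the authors' deposited table). Prss1 was the 1 marker called between double and Pdx1 heterozygotes (-2.12, adjusted p = 0.0341 per the authors' deposited table). The 19 had a median of -0.06 there. Over all genes 0.206% were higher in the first comparison and 0.63% lower in the second. None of the 40 was called in either comparison. Between Oc1+/- and control, 5 of 15 endocrine markers rose and 2 fell. In the same comparison 1 of 7 duct and 1 of 5 leukocyte markers rose, against the 3.66% of all genes. Of neural markers 3 of 4 fell, and of mesenchyme 1 of 8 and of erythroid markers 1 of 5, against the 2.59% of all genes. A single gene called in so short a list tells little about a cell type. Of the intestine and stomach markers 2 of 5 rose, and of 5 liver and 4 plasma cell markers none was called. In double heterozygotes against control, 9 of 15 endocrine and 3 of 5 liver markers were lower and none higher. Of intestine and stomach markers 2 of 5 were higher and 1 lower there, and no acinar marker was called. Over all genes 0.188% were higher and 0.555% lower. Against Pdx1LacZ/+, 9 of 15 endocrine markers were lower in the double heterozygotes (0.63% of all genes). Xist, expressed from the inactive X chromosome, stood at -8.78 in the Oc1+/- libraries against control (adjusted p = 0.00249 per the authors' deposited table). Ddx3y, on the Y chromosome, stood at 2.64 (adjusted p = 0.0370 per the authors' deposited table). By Xist and Ddx3y the Oc1+/- libraries differ from control in sex composition, which cannot be told apart from genotype here. Xist was also higher in Pdx1 than in Oc1 heterozygotes (8.32, adjusted p = 0.00543 per the authors' deposited table). In double over Oc1 heterozygotes it stood at 8.18 (adjusted p = 0.000619 by the derived normal test). Ddx3y passed in neither. Both comparisons with the Oc1 heterozygotes thus carry the same limit. Of the 15 genes, Ssr4 is on the X chromosome. The part of acinar content, other cell types or sex composition in the rise of the 15 genes was not tested.

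Xbp1, the unfolded protein response factor named above, is known to bind promoter sites with the core ACGTGG, so these letters were searched. RefSeq promoters (build GRCm38.p6, 250 bases before to 50 after each start) were at hand for 31 of the 40 genes, 10 of them listed. ACGTGG was found on either strand in 12 of the 31 (38.7%), against 9.40% of 27025 genes with a promoter. It was in 3 of the 10 listed genes, Mcfd2, Ssr1 and Spcs1, and in 9 of the 21 unlisted ones, among them Sec24d, Sec13 and Kdelr3. A match describes letters and is no evidence of binding, and base composition was not matched between the sets. The 3 listed promoters are shown beside that of the unlisted Kdelr3, 5′ to 3′ on the gene's strand, with ACGTGG or its reverse complement in capitals.
Mcfd2, chr17:87265898-87266197, minus strand: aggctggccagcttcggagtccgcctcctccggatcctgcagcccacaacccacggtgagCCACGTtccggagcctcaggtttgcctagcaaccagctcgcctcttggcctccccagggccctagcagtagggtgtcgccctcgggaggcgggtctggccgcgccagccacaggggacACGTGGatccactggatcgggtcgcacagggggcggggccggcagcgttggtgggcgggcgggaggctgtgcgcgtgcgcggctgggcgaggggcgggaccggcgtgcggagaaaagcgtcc
Ssr1, chr13:37994159-37994458, minus strand: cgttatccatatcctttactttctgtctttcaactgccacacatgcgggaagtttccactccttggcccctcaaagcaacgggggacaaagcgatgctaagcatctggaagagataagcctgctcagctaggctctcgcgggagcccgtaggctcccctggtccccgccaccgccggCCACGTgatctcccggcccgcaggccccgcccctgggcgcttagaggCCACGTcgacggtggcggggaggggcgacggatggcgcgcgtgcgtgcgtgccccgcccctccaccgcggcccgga
Spcs1, chr14:31001617-31001916, minus strand: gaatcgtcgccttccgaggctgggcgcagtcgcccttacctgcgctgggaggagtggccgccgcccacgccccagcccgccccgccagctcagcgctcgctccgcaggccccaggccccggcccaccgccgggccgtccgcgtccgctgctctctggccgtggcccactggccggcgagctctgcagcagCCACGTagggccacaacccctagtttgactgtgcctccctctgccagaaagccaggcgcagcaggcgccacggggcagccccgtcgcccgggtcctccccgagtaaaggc
Kdelr3, chr15:79516158-79516457, plus strand: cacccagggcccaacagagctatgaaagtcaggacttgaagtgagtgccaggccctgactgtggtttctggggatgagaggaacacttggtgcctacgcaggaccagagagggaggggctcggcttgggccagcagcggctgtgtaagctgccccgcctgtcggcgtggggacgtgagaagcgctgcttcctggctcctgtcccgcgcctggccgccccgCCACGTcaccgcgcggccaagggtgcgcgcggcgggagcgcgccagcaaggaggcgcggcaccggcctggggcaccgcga

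Counted from the start to the first base of the match, Mcfd2 holds the core at -190 and -72 and Ssr1 at -73 and -26. Spcs1 has 1 copy at -60 and Kdelr3 has 1 copy at -30. The 4 promoters are 66.7% to 74.7% G and C. The shorter CCACG, which overlaps this core, was in 21 of the 31 promoters (67.7%, against 35.5% of all genes), and ACGT in 18 (58.1%, against 33.8%). Any match to the core holds both shorter motifs, so the 12 promoters with the core are counted again in each. These shares are therefore not separate observations. The full ER stress element, CCAAT and CCACG with 9 bases between them, was in none of the 31 and in 0.137% of all genes. CATATG, a site known for Bhlha15, was in 2 of the 31, the unlisted Srp14 and Sec31a (6.45%, against 4.48% of all genes). Each of these motifs was searched on both strands.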

How the data were processed

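RNA of embryonic pancreata was sequenced in 16 libraries. The submitters' processing notes name CASAVA 1.8.2, edgeR and build mm9; aligner, counting method and edgeR version are not given in the sources used here. The 16 value columns of the count table carry run names that match no label, so none was used and only gene and transcript names were read. Per the file headers, the authors' table of 5 comparisons gives a log2 fold change, mean log2 CPM, p-value and adjusted p (FDR) by the authors. Base 2 fits its highest mean, 13.97. In 12 rows a block is empty, and 8 of these were moved back by 1 column.

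The fourth block held Pdx1 minus double heterozygotes in 2275 of 2275 rows (tolerance 1e-06), against its heading, and its sign was turned. The fifth held Pdx1 minus Oc1 heterozygotes in 2279 of 2279 rows, also against its heading. Exchanging the headings of blocks 1 and 3 would fit this arithmetic too, and blocks 4 and 5 would then match their headings as printed. Variances implied by the p-values of blocks 2 to 5, as medians relative to block 1, were 1.15, 0.905, 0.897 and 1.14 (762 genes with mean log2 CPM above 4). The headings kept predict 1.17, 0.9, 0.9 and 1.17 from group sizes, and exchanged ones 1.30, 1.11, 1 and 1.19.

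A standard error is the fold change over the normal quantile of its p, for p under 0.9. Double against Oc1 heterozygotes and the interaction were added up from deposited fold changes, with variances summed over independent groups and scaled by group size. Benjamini-Hochberg adjustment ran over all 22869 genes, and unlisted ones entered as not changed. The edgeR refit that needs counts per sample was not run. The 40 genes, other lists and thresholds were chosen with earlier results of these data known. Every listed gene of the 40 is named, and up to 3 called genes of each other list by size of change. Copies were searched with BLAST 2.17.0, and computations used Python 3.11.15 and scipy 1.17.1.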

Additional observations from a re-analysis of the deposited data

Results flagged for a closer look

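The derived interaction, with p adjusted over all genes, passed the threshold for each of the 15 listed genes, which is what singled them out here. The listing favours this: the genes are in the table through being high in Oc1+/- against control, and that difference is subtracted in the interaction. The values are therefore a description and no evidence that the alleles interact. On the log2 scale the interaction was -1.32 for Mcfd2, -1.27 for Sec11c, -0.97 for Sec23b, -0.94 for Ssr4, -0.89 for Ssr2, -0.87 for Spcs3, -0.85 for Tmed2 and -0.83 for Sec61b. It was -0.73 for Ssr1, -0.69 for each of Ostc, Dad1 and Rpn2, -0.68 for Spcs1, -0.65 for Srpr and -0.62 for Ddost. It was added after the data were seen.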

How the results depend on the processing

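No paired analysis was possible because the comparison table has no value per library, and leaving out replicates was not run for the same reason. Requiring 2-fold left 2 genes called in Oc1 heterozygote against control, 1 in Pdx1 against Oc1 heterozygote, 2 in double against Oc1 heterozygote and 2 in the interaction. Without a fold minimum 15 were called in Pdx1 against Oc1 heterozygote. Adjusted p limits of 0.1 and 0.01 changed no count. With headings as printed, or with blocks 1 and 3 exchanged, double against Oc1 heterozygote had 8 genes lower, and the comparisons of the Pdx1 and double heterozygotes with control had 0. Either derivation of the standard error alone gave 10 and 8 for double against Oc1 heterozygote, the second having no test for 2 of the 15 genes. Bonferroni adjustment ended 2 calls of single genes and left 73 results as they were. Depth per library was not analysed here, so what it limits is unknown.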
